A study of Arabidopsis thaliana with 12 samples.

Results

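The 36 genes described here are glutathione transferases of the tau and phi classes and the pair of enzymes that make glutathione, and were taken by gene ID from a count table of 32678 *Arabidopsis thaliana* genes. They comprise 27 tau genes (GSTU), 7 phi genes (GSTF), *GSH1* and *GSH2*, and 34 of them were among the 20168 genes that passed the filter on low counts. RNA came from roots of wild type Col-0 and of *clf-29*, a single T-DNA insertion line in *CLF*, the gene of a histone methyltransferase of Polycomb repressive complex 2 (PRC2). Seedlings of both genotypes grew for 12 days on B5 medium and then for 3 days on medium with iron (+Fe, FeNa-EDTA) or on medium without iron that held the iron chelator ferrozine (-Fe). Each of the 4 groups had 3 libraries, called biological replicates in the methods, and p-values measure the spread between these libraries. The comparisons address how the roots respond to iron deficiency and how that response differs without *CLF*.

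Levels are given as CPM, counts scaled to a common library size by TMM normalization, which compares libraries for the same gene. FPKM, which also divides by gene length, was used to order different genes. Fold changes are on the log2 scale with their standard error (SE), and a gene is called where its p from the quasi-likelihood test of edgeR, adjusted by Benjamini-Hochberg over all 20168 genes, was under 0.05.

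Glutathione is the tripeptide that plant cells use as their main thiol redox buffer, and it is also the building block of phytochelatins, which bind metals. *GSH1* encodes the glutamate-cysteine ligase of the plastid, the committed and rate-limiting step, and *GSH2* encodes glutathione synthetase, which adds glycine. Glutathione transferases couple glutathione to electrophiles such as herbicides and oxidized lipids, and the tau and phi classes are the large, plant-specific ones. Most tau genes lie in tandem clusters, the largest being the *GSTU1*-*GSTU7* cluster on chr2:12617936-12632538 (minus strand) and the *GSTU19*-*GSTU23* cluster on chr1:29467412-29488007 (minus strand). The *GSTU24*-*GSTU26* cluster lies on chr1:5869543-5876620 (plus strand).

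The letters TGACG are the core of the element that TGA transcription factors of the bZIP family bind in promoters of detoxification genes. The promoters of the 3 members that rose under iron deficiency in wild type are shown because each holds 1 copy in the 250 bases before the annotated start. The sequences are from RefSeq (TAIR10.1, where all 36 members matched by gene ID), run 5′ to 3′ on the strand of the gene, and carry TGACG in capitals. For *GSTU22* (AT1G78340) the whole window, chr1:29474004-29474253 on the minus strand, is given, and for *GSTU25* (AT1G17180) that of chr1:5871774-5872023 on the plus strand. For *GSTU24* (AT1G17170) 30 bases around the match are given, chr1:5869370-5869399 on the plus strand, since its window reaches into the neighbouring gene.
GSTU22: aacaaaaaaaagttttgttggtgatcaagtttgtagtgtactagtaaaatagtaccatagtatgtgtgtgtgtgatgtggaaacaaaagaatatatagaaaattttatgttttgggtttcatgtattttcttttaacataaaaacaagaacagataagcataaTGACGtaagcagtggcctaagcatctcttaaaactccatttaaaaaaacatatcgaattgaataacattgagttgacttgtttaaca
GSTU25: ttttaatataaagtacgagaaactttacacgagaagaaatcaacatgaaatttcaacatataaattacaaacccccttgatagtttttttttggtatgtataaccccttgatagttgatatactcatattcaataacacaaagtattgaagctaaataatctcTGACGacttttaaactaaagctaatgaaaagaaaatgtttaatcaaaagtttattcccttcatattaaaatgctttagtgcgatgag
GSTU24: atgcTGACGcaggcagtggcctaagcaact
The match began 87 bases before the start in *GSTU22* and in *GSTU25*, and 169 bases before it in *GSTU24*. *GSTU22* and *GSTU24*, which lie in different clusters, also shared the run gcagtggcctaagca of 15 bases, which begins 8 bases after the first base of the match in both. Among 27443 windows of the same length before protein-coding genes, searched on both strands, those of *GSTU22* and *GSTU24* were the 2 that held this run, which had been found by comparing them. *GSTU25* shared no run longer than 8 bases with either gene.

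TGACG was found on either strand in 14 of the 36 members (38.9%) and in 5098 of the 27443 windows (18.6%). Of these 14, 10 were not called for iron, among them *GSTU1*, *GSTU7* and *GSTU9* with 2 or more copies, while *GSTU26*, *GSTU19* and *GSH1* had none. *GSTF3* held 1 copy on the minus strand, 244 bases before its start. CACGTG, the letters of the G-box, was in 3 members (*GSTU17*, *GSTU18* and *GSTF6*) and in 6.49% of all windows. A match is a description of letters and says nothing of binding.

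The libraries held 18658428 to 28281420 counts, and the members took 0.417% to 0.606% of them. *CLF* itself had a mean of 46.1 and 52.4 CPM in +Fe and -Fe wild type against 13.7 and 13.7 CPM in the same groups of *clf*, and was called lower in both. *IRT1*, the iron transporter of the root, averaged 236 CPM in +Fe and 2626 CPM in -Fe wild type, and 161 and 3610 CPM in *clf*. Of the 4 genes that check the labels, *CLF* and *IRT1* among them, none was called higher for iron in wild type (2.28% of all tested genes). In *clf* 1 of the 4 was (1.27% of all). In every group the library with the lowest mean correlation to its group is said to stand apart, so that by this rule each group has 1. These 4 had mean correlations of 0.934 to 0.953, against 0.959 to 0.97 for the other 8. They were replicate 1 of +Fe wild type, of -Fe wild type and of -Fe *clf*, and replicate 2 of +Fe *clf*. They held the clock genes *CCA1* at 3.0 to 6.7 CPM and *LHY* at 3.1 to 6.6 CPM, against 26.7 to 48.2 CPM and 58.9 to 100.5 CPM in the other 8 libraries. In each group the 4 genes that check the labels also had their lowest sum in the library that stands apart. In -Fe wild type that sum was 1660.8 CPM, against 6478.8 and 7059.5 CPM in replicates 2 and 3. A fit of the other 8 libraries, 2 a group, is therefore given beside the members whose calls it changed. It is also given beside some of the members whose estimates it changed. The part of the 4 libraries that stand apart in the results was not tested. Since they are the least correlated of each group, leaving them out narrows the spread. Root markers summed to 213 to 468 CPM, and 8 or 9 of the 9 had a read in every library of a group. Markers of green shoot tissue, 11 genes of which none was at 0 in a whole group, summed to 275 to 587 CPM in +Fe and 48.3 to 327 CPM in -Fe wild type, and to 303 to 893 and 116 to 270 CPM in *clf*. These sums were thus lower without iron, with overlap in wild type and none in *clf*. Of the 11, 1 was called lower in wild type (2.14% of all tested genes) and 0 in *clf* (0.491% of all). The highest sum of both +Fe groups and of -Fe wild type was in the library that stands apart, and so was the lowest of -Fe *clf*. The part of these markers in the iron responses was not tested. In root tissue taken as a whole, fewer cells of a type and less RNA per cell cannot be told apart.

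Per length, levels ranged widely. The phi gene *GSTF9* had the highest mean over the 12 libraries, 969 FPKM, and *GSTU19*, an abundant tau enzyme active against herbicides, followed with 949 FPKM. *GSTF10* (567 FPKM) and *GSTF8* (400.2 FPKM), a gene known for its response to oxidative stress, came next. *GSTU25* (234 FPKM), *GSTU8* (213 FPKM) and *GSTU24* (183 FPKM) were the next 3, with lowest and highest libraries of 51.9 and 757, 104 and 293, and 60.6 and 368 FPKM, so that their ranges overlapped. *GSH1* stood 11th with 127 FPKM and *GSH2* 17th with 46.3 FPKM. At the other end, *GSTU3* and *GSTU15* averaged 0.236 and 0.133 FPKM from 53 and 32 reads in all and were not tested. Tandem neighbours differed widely, since *GSTU21* (1.58 FPKM) and *GSTU23* (2.21 FPKM) lie in the cluster of *GSTU19*.

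**Figure D1:**
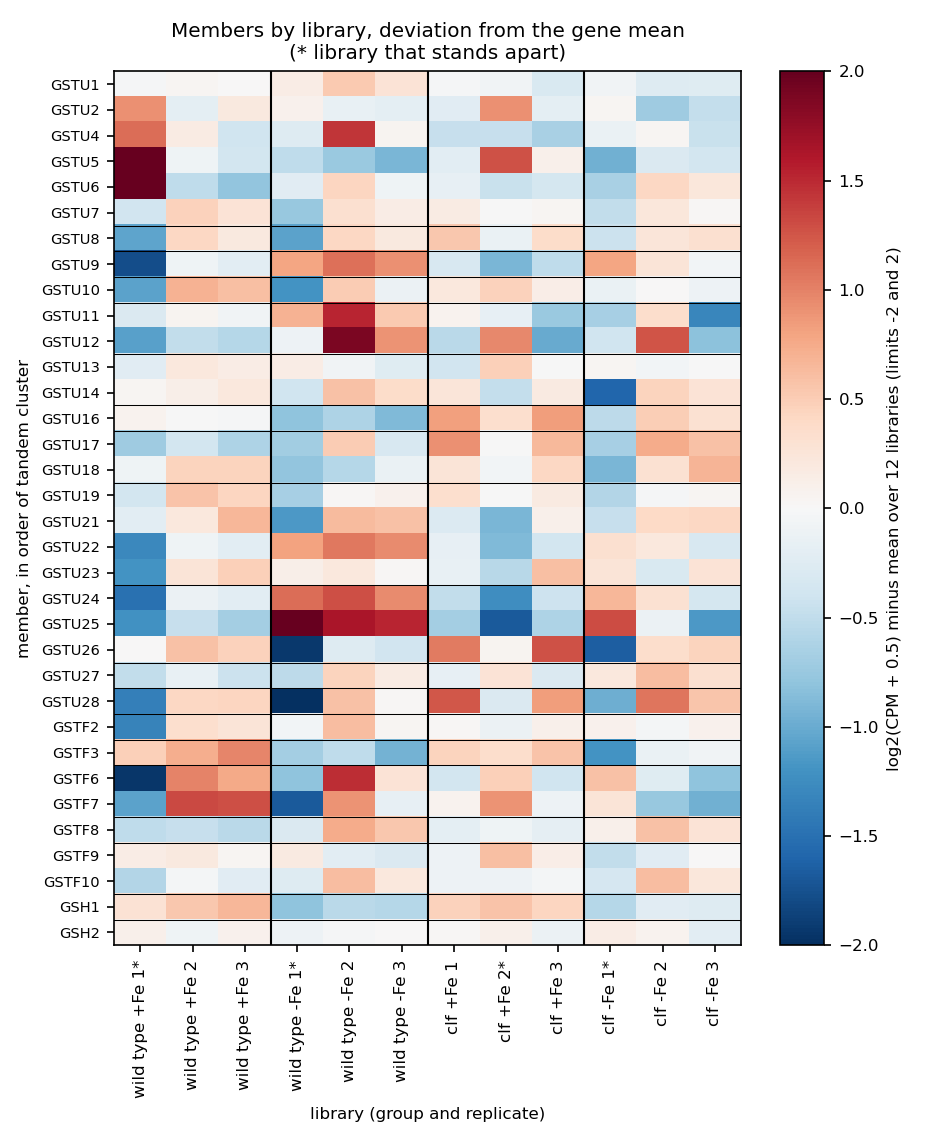
Heat map of the 34 tested members (rows, in order of tandem cluster, parted by lines) in the 12 libraries (columns, by group and replicate, an asterisk marks a library that stands apart). The colour is log2(CPM + 0.5) minus the mean of the gene, capped at -2 and 2. *GSTU22*, *GSTU24* and *GSTU25* are red in -Fe wild type, and *GSTU5* and *GSTU6* are darkest in replicate 1 of +Fe wild type.

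Iron deficiency in wild type was followed by higher transcripts of 3 tau genes, *GSTU22*, *GSTU24* and *GSTU25*, and lower transcripts of *GSH1* and *GSTF3*. Thus 3 of 34 tested members were called higher, where 2.28% of all tested genes were, and 2 were called lower, where 2.14% of all were. In *clf* no member was called higher (1.27% of all tested genes) and *GSH1* was the 1 called lower (0.491% of all). For that count of 0, the unadjusted edgeR p of 3 members with a higher mean was under 0.05, while none was called by DESeq2. The share of all genes with such an unadjusted p in *clf* was not counted, so the 3 are a description. The median log2 fold change over the 34 members was -0.03 in wild type and -0.07 in *clf*, against -0.003 and -0.011 over all genes tested. DESeq2 called 8 members in wild type in either direction (8.8% of all genes) and 1 in *clf* (4.81% of all). Without the 4 libraries that stand apart, 17 members were called in wild type (27.3% of all genes) and 7 in *clf* (14.6% of all).

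Same-numbered libraries of wild type deviated together (correlations of 0.616, 0.44 and 0.463), so the replicate number was also used as a block. Replicate 2 of either wild type group and replicate 3 of the other also did so (0.412 and 0.429), and replicate 1, which stands apart in both groups, went against them (-0.543 to -0.503). Deviations from a mean of 3 libraries cancel out within a group, so these correlations depend on one another. In the model of all 4 groups with this block 1 member, *GSTU25*, was called higher (2.41% of all genes), with an adjusted p of 0.0507 for *GSTU22* and 0.063 for *GSTU24*. In the fit of the 6 wild type libraries with the block 6 members were called higher (6.45% of all genes), namely *GSTU22*, *GSTU24*, *GSTU25*, *GSTU9*, *GSTU12* and *GSTF10*. *GSH1* and *GSTF3* were called lower in both blocked fits.

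*GSH1* (AT4G23100, chr4:12102135-12107695, minus strand, 17 exons) had the smallest p of the members in the iron comparison of each genotype. Its libraries held 309.9, 366 and 399 CPM in +Fe wild type and 145, 174 and 169 CPM in -Fe wild type. In *clf* they held 347, 375 and 340.1 CPM with iron and 169.8, 216 and 212 CPM without it. In both genotypes every -Fe library was below every +Fe library. The fall was 2.2-fold in wild type (log2 fold change -1.14, SE 0.15, adjusted p = 0.00246) and 1.78-fold in *clf* (-0.83, SE 0.15, adjusted p = 0.0192). The call in wild type remained when each of the 12 libraries was left out, with adjusted p of 0.00162 to 0.0157. That in *clf* was lost without any of replicates 1, 2 and 3 of +Fe *clf* (adjusted p = 0.0648, 0.0576 and 0.07) or replicates 1 and 2 of -Fe *clf* (0.0688 and 0.0529), while its log2 fold change stayed between -0.90 and -0.72. It was also lost in the fit of the 6 *clf* libraries with the replicate block (adjusted p = 0.161). With the 8 libraries *GSH1* was called lower in both genotypes (-1.16, adjusted p = 9.42e-07 in wild type, and -0.68, adjusted p = 0.000275 in *clf*).

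*GSH2* (AT5G27380, chr5:9667912-9671015, minus strand), the second enzyme, was not called in any comparison. It had 95.02, 83.4 and 93.1 CPM in +Fe and 82.1, 86.7 and 88.8 CPM in -Fe wild type, and 89.3, 94.6 and 81.3 CPM in +Fe and 97.9, 92.1 and 76.0 CPM in -Fe *clf*. All 4 groups overlapped. Its log2 fold change was -0.08 in wild type (95% interval -0.36 to 0.20) and 0.00 in *clf* (-0.28 to 0.29), neither called.

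**Figure D2:**
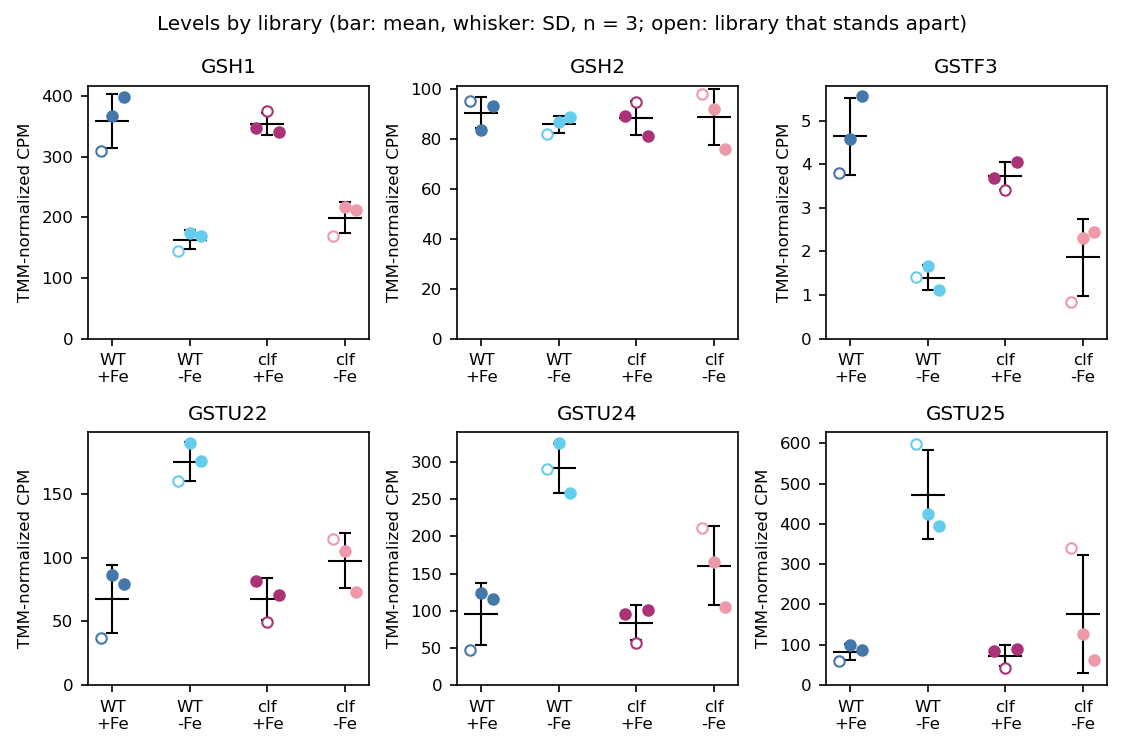
CPM of *GSH1*, *GSH2*, *GSTF3*, *GSTU22*, *GSTU24* and *GSTU25* in the 12 libraries by group (points, 3 a group, open where the library stands apart), with the mean (bar) and SD (whisker). *GSH1* is lower in every -Fe library, and the 3 tau genes are highest in -Fe wild type.

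In the *GSTU24*-*GSTU26* cluster, the first 2 genes were called higher in -Fe wild type and the third was not. *GSTU25*, whose enzyme, like that of *GSTU24*, detoxifies the explosive TNT, had 59.2, 99.0 and 85.7 CPM in +Fe wild type and 598, 424 and 395 CPM in -Fe wild type. That is 5.81-fold higher, with no overlap (log2 fold change 2.54, SE 0.55, adjusted p = 0.0268). In *clf* the same gene had 85.0, 42.6 and 89.2 CPM with iron and 339.9, 127 and 61.8 CPM without it, so that the groups overlapped (1.28, SE 0.52, adjusted p = 0.313). Its highest -Fe value in each genotype was in the library that stands apart. In the fit of the other 8 its estimate in *clf* fell to 0.11 (SE 0.31, adjusted p = 0.86), while in wild type it stayed called at 2.15 (SE 0.32, adjusted p = 0.00453). The wild type call was lost without replicate 1, 2 or 3 of +Fe wild type (adjusted p = 0.0762, 0.0865 and 0.104) or replicate 2 or 3 of -Fe wild type (0.0733 and 0.0633), with log2 fold changes of 2.33 to 2.71 over all libraries left out.

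*GSTU24* had 47.0, 124 and 116 CPM in +Fe and 290.3, 326 and 259 CPM in -Fe wild type, 3.06-fold higher without overlap (1.61, SE 0.37, adjusted p = 0.0336). In *clf* it had 94.99, 56.4 and 100.4 CPM with iron and 212, 165 and 105 CPM without it, again without overlap but not called (0.94, SE 0.36, adjusted p = 0.284). Of the 5 wild type calls this one was lost most often as libraries were left out. It was lost without replicate 2 or 3 of +Fe wild type (adjusted p = 0.066 and 0.0867), replicate 2 or 3 of -Fe wild type (0.121 and 0.0809), replicate 1 or 3 of +Fe *clf* (0.0557 and 0.0518) and replicate 2 of -Fe *clf* (0.0546), and in the fit of the 6 wild type libraries (0.0823). The fit of the other 8 libraries gave 1.29 in wild type (adjusted p = 0.000705) and 0.47 in *clf* (adjusted p = 0.134).

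*GSTU26*, the third gene of the cluster, lacked a TGACG match and was not called. Its means were 71.3 and 33.9 CPM in +Fe and -Fe wild type and 101 and 54.1 CPM in *clf*, with log2 fold changes of -1.07 (adjusted p = 0.344) and -0.91 (adjusted p = 0.54). Each -Fe wild type library of *GSTU26* (at most 45.8 CPM) was below each +Fe one (at least 55.0 CPM), with overlap in *clf*. Its -Fe values in the libraries that stand apart were 14.0 CPM (wild type) and 17.2 CPM (*clf*). The remaining -Fe libraries held 45.8 and 41.8 CPM in wild type, and 70.0 and 75.2 CPM in *clf*. Without the 4 libraries it was called lower in both genotypes (-0.86, adjusted p = 5.46e-05 in wild type, and -0.76, adjusted p = 0.000254 in *clf*). *GSTU24* and *GSTU25* are 79.4% identical over their coding sequence, and no stretch of 100 bases of their transcripts was shared with another gene.

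In the *GSTU19*-*GSTU23* cluster 1 of the 4 members, *GSTU22*, was called. *GSTU22* had 37.3, 86.3 and 79.4 CPM in +Fe and 160.3, 191 and 177 CPM in -Fe wild type, 2.6-fold higher without overlap (1.38, SE 0.30, adjusted p = 0.0268). In *clf* it had 82.1, 49.7 and 71.0 CPM with iron and 115, 106 and 73.1 CPM without it, and the groups overlapped (0.53, SE 0.30, adjusted p = 0.486). The wild type call was lost without replicate 3 of +Fe wild type (adjusted p = 0.0708), without replicate 2 or 3 of -Fe wild type (0.101 and 0.0829), and in the fit of the 6 wild type libraries (0.0847). From the 8 libraries the estimate was 1.15 in wild type (adjusted p = 8.89e-05) and 0.22 in *clf* (adjusted p = 0.366). *GSTU19*, the nearest of the members to it in coding sequence (77.4% identity), was at 705, 1364 and 1238 CPM in +Fe and 579, 930.3 and 967 CPM in -Fe wild type. Its *clf* libraries held 1151, 905 and 1032 CPM with iron and 608, 900.4 and 940.1 CPM without it. The groups overlapped in both genotypes, and the lowest value of every group was in the library that stands apart. *GSTU19* was not called (-0.42, adjusted p = 0.484 in wild type, and -0.34, adjusted p = 0.686 in *clf*), but without these libraries it was called lower in wild type (-0.46, adjusted p = 0.00611) and had -0.25 in *clf* (adjusted p = 0.156). *GSTU21* and *GSTU23* stayed at group means of 0.686 to 1.26 CPM and 1.73 to 1.91 CPM.

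Of the phi genes, *GSTF3* (AT2G02930) was the 1 called. It had 3.80, 4.59 and 5.56 CPM in +Fe and 1.42, 1.67 and 1.11 CPM in -Fe wild type, 3.33-fold lower without overlap (-1.73, SE 0.36, adjusted p = 0.0232). In *clf* it had 3.68, 3.42 and 4.07 CPM with iron and 0.846, 2.30 and 2.45 CPM without it, again without overlap but not called (-0.999, SE 0.36, adjusted p = 0.23). The wild type call was lost without replicate 2 or 3 of +Fe wild type (adjusted p = 0.0734 and 0.0951) or replicate 2 or 3 of -Fe wild type (0.0657 and 0.103). Its estimate from the 8 libraries was -1.87 in wild type (adjusted p = 0.000231) and -0.70 in *clf* (adjusted p = 0.106), and the *clf* value was -0.65 without replicate 1 of -Fe *clf* alone. *GSTF3* is 94.5% identical to *GSTF2* in coding sequence, though their transcripts shared no stretch of 100 bases. *GSTF2*, an enzyme that also binds auxin and camalexin, averaged 148 and 182 CPM in +Fe and -Fe wild type and 156 and 160.1 CPM in *clf*, and was not called. It overlaps *TOC159* (AT4G02510) on the opposite strand over 1442 bases, and whether the counting used strand is not given.

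*GSTF6*, which acts in camalexin synthesis, and *GSTF7* form a tandem pair with 94.3% coding identity, and 1.56% and 1.53% of their 100-base stretches occur in both. *GSTF7* had 54.7, 290.2 and 284 CPM in +Fe and 35.7, 215 and 103 CPM in -Fe wild type. In *clf* it had 121, 215 and 108 CPM with iron and 138, 67.8 and 58.9 CPM without it. These values overlapped between the groups, and *GSTF6* likewise ranged from 16.1 CPM to 177 CPM with overlap and no call. Between the genotypes *GSTF7* differed by -0.50 with iron and -0.42 without it, and *GSTF6* by -0.43 and -0.65. From the 8 libraries these were -1.33 and -1.33 for *GSTF7* (adjusted p = 0.148 and 0.0852). For *GSTF6* they were -1.27 and -1.51 (adjusted p = 0.294 and 0.142), and none was called.

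*GSTF8* came close to the threshold in wild type. Its means were 474 and 885 CPM in +Fe and -Fe wild type (0.90, SE 0.23, adjusted p = 0.0546) and 605 and 849 CPM in *clf* (0.49, SE 0.23, adjusted p = 0.396), without overlap in either genotype. DESeq2 called it in wild type (adjusted p = 0.00453), and the fit of the other 8 libraries called it higher in both genotypes (1.15, adjusted p = 6.8e-06, and 0.62, adjusted p = 0.00297). *GSTF8* overlaps a neighbour on its own strand, AT2G47720, over 516 bases.

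The pair *GSTF9* and *GSTF10* was abundant throughout. *GSTF9* had 926, 961 and 857 CPM in +Fe and 946, 727 and 687 CPM in -Fe wild type, and 781, 1274 and 918 CPM in +Fe and 597, 715 and 839.9 CPM in -Fe *clf*. The groups overlapped. *GSTF10*, induced by dehydration in earlier work and also named ERD13, averaged 463 and 657 CPM in wild type and 526 and 649 CPM in *clf* with overlap, and neither gene was called. *GSTF10* was called higher without the 4 libraries that stand apart, in both genotypes (0.56, adjusted p = 0.013, and 0.50, adjusted p = 0.0385), and *GSTF9* lower in wild type (-0.36, adjusted p = 0.0382).

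None of the *GSTU1*-*GSTU7* genes was called for iron in the model of all libraries. *GSTU1* had 68.6, 71.8 and 70.0 CPM in +Fe and 77.6, 100.6 and 84.2 CPM in -Fe wild type, without overlap, and 68.9, 66.8 and 56.6 CPM in +Fe and 66.3, 58.4 and 59.2 CPM in -Fe *clf*, with overlap. *GSTU1* was called higher in wild type with the 8 libraries (0.38, adjusted p = 0.0266). *GSTU7*, linked in earlier work to tolerance of methyl viologen, had 78.4, 139.9 and 124 CPM in +Fe and 60.1, 127 and 113 CPM in -Fe wild type, and 115, 101 and 104 CPM in +Fe and 72.2, 119.7 and 103 CPM in -Fe *clf*. *GSTU7* did not separate by iron in either genotype. *GSTU4* had 7.34, 3.55 and 2.25 CPM in +Fe and 2.55, 9.25 and 3.27 CPM in -Fe wild type, and 2.13, 2.14 and 1.82 CPM in +Fe and 2.82, 3.22 and 2.18 CPM in -Fe *clf*. *GSTU4* was thus a little higher in all -Fe *clf* libraries than in +Fe ones, and overlapped in wild type.

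*GSTU5* and *GSTU6* stood out in a single library. Replicate 1 of +Fe wild type, which stands apart, had 106 CPM of *GSTU5* and 65.99 CPM of *GSTU6*, against 11.6 and 9.50 CPM of *GSTU5* and 10.07 and 8.25 CPM of *GSTU6* in replicates 2 and 3. Over all other libraries *GSTU5* lay between 6.12 and 30.7 CPM and *GSTU6* between 8.25 and 19.8 CPM. The 30.7 CPM of *GSTU5* was in the +Fe *clf* library that stands apart, where *GSTU2* was also at its highest, 11.5 CPM, a level it shared with replicate 1 of +Fe wild type. The large *GSTU5* fold change in wild type (-2.53, SE 0.82, adjusted p = 0.121) was not called, and without the 4 libraries that stand apart it was -0.64 (SE 0.18, adjusted p = 0.0164). The estimate for *GSTU6* turned from -0.88 (adjusted p = 0.539) to 0.88 (adjusted p = 0.00254) without them, and it was then called higher in *clf* too (0.60, adjusted p = 0.0351). Genes on the opposite strand overlap *GSTU2*, *GSTU6* and *GSTU7* over 849, 398 and 636 bases, and whether the counting used strand is not given.

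**Figure D3:**
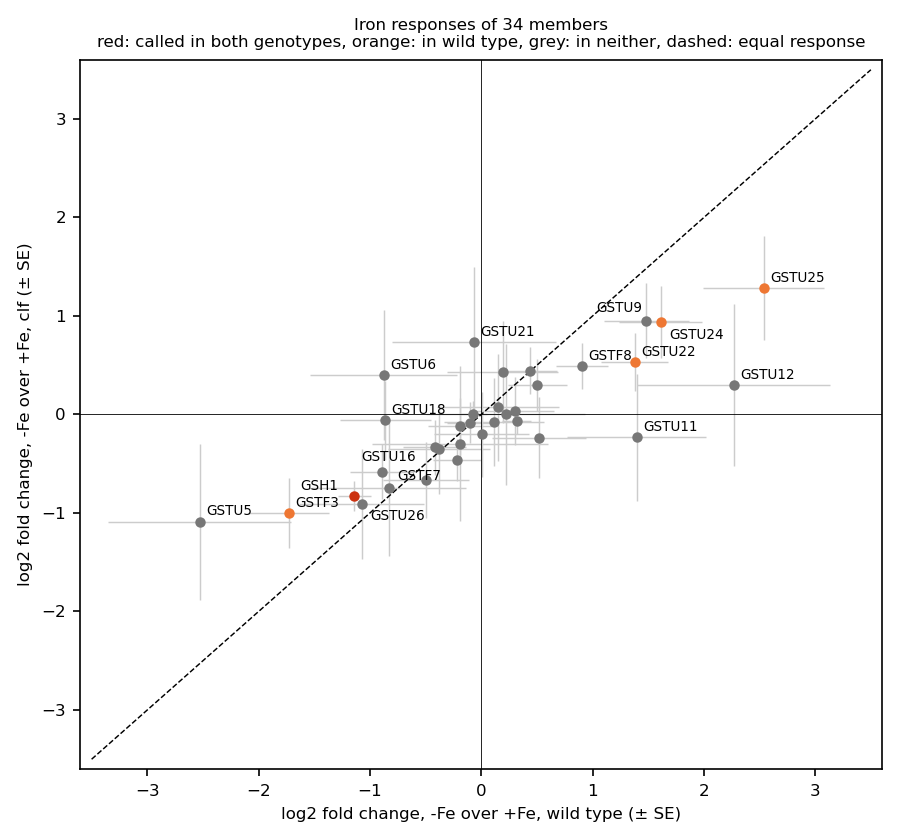
Log2 fold change of -Fe over +Fe (± SE) in wild type (horizontal) and *clf* (vertical) for the 34 tested members, each a point. *GSH1* (red) was called in both genotypes, and *GSTU22*, *GSTU24*, *GSTU25* and *GSTF3* (orange) in wild type. These 5 lie nearer to 0 in *clf*, which their choice by the wild type values favours, and no difference between the responses was called. The dashed line marks equal responses.

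The remaining tau genes were not called for iron in the model of all libraries. *GSTU9* came nearest, with means of 19.9 and 55.7 CPM in wild type (1.48, SE 0.38, adjusted p = 0.0543) and 19.3 and 37.4 CPM in *clf* (0.95, SE 0.38, adjusted p = 0.295), and no overlap in either genotype. DESeq2 called *GSTU9* in wild type (adjusted p = 0.00301), and without the 4 libraries that stand apart it was called in both genotypes (1.18, adjusted p = 9.33e-06, and 0.54, adjusted p = 0.0134). *GSTU12* had 0.591, 1.15 and 1.06 CPM in +Fe and 1.66, 7.99 and 3.82 CPM in -Fe wild type, against 1.098, 4.02 and 0.654 CPM in +Fe and 1.25, 5.02 and 0.816 CPM in -Fe *clf*. Its neighbour *GSTU11* had 0.886, 1.25 and 1.103 CPM in +Fe and 2.23, 4.38 and 1.93 CPM in -Fe wild type, and 1.28, 1.00 and 0.514 CPM in +Fe and 0.564, 1.66 and 0.181 CPM in -Fe *clf*. Both were higher in every -Fe wild type library and overlapped in *clf*, and DESeq2 called *GSTU12* in wild type (adjusted p = 0.0499). The *GSTU12* iron estimate in *clf* was 0.30 with all libraries and 1.70 with the 8 (adjusted p = 0.259). Its difference between the genotypes with iron turned from 1.04 to -0.30 (adjusted p = 0.935 with the 8).

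*GSTU13*, which acts in the indole glucosinolate pathway of immunity, had 133, 180.0 and 173 CPM in +Fe and 173, 149 and 131 CPM in -Fe wild type, and 119.0, 217 and 156 CPM in +Fe and 159.9, 150.3 and 154 CPM in -Fe *clf*. *GSTU13* overlapped throughout. In what follows the +Fe and -Fe means of wild type are given first and those of *clf* after them. *GSTU8* (170.3 and 171 CPM, 211 and 183 CPM) overlapped between +Fe and -Fe in both genotypes. So did *GSTU14* (18.1 and 19.6 CPM, 16.8 and 15.9 CPM) and *GSTU28* (13.5 and 11.9 CPM, 22.2 and 18.2 CPM). *GSTU10* (32.3 and 24.8 CPM, 32.5 and 25.5 CPM) overlapped in wild type and was not called in either genotype. In *clf* each of its -Fe libraries (24.4 to 27.0 CPM) was below each +Fe one (29.4 to 37.1 CPM). *GSTU27* averaged 27.5 and 37.1 CPM in wild type and 34.05 and 46.4 CPM in *clf* (0.44 and 0.45, adjusted p = 0.377 and 0.468), and was called higher in both without the 4 libraries that stand apart (0.60, adjusted p = 0.00598, and 0.72, adjusted p = 0.00301). *GSTU3*, at 0 to 0.844 CPM, was highest in the 2 +Fe libraries that stand apart.

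Between the genotypes no member was called. Under iron sufficiency 0 of 34 were called higher, where 0.0645% of all genes were, and 0 lower (0.00496% of all). Under iron deficiency 0 were called higher (0.109% of all genes) and 0 lower (0.0248% of all). The unadjusted edgeR p was under 0.05 for 2 members with iron (3.37% of all genes) and 6 without it (7.72% of all). DESeq2 called no member with iron (0.372% of all genes) and 1, *GSTU1*, without it (1.12% of all). Without the 4 libraries that stand apart, 3 members were called with iron (2.59% of all genes) and 8 without it (7.98% of all). The median log2 fold change over the members was -0.04 with iron and -0.03 without it, against -0.009 and -0.004 over all genes. For orientation, the tau gene *GSTU20*, which lies in the *GSTU19*-*GSTU23* span and is not among the 36, was called lower in -Fe *clf*, with a mean of 7.01 CPM against 25.7 CPM in -Fe wild type (-1.87, SE 0.26, adjusted p = 0.0199).

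Under iron deficiency the genes that were called higher in wild type all had lower means in *clf*. They had been picked for high values in these same -Fe wild type libraries, which favours lower values in *clf*, so the comparison is a description. *GSTU25* averaged 472 ± 110 CPM (SD, n = 3) in wild type and 176 ± 146 CPM in *clf* (-1.42, 95% interval -2.58 to -0.27, adjusted p = 0.538). *GSTU24* averaged 292 and 161 CPM (-0.86, -1.66 to -0.06, adjusted p = 0.605), and *GSTU22* 176 and 97.8 CPM (-0.85, -1.498 to -0.19, adjusted p = 0.501). For each of the 3 every -Fe *clf* library was below every -Fe wild type library. Without the 4 libraries that stand apart these were called lower in *clf* (*GSTU25* -2.12, adjusted p = 0.0138, *GSTU24* -1.11, adjusted p = 0.00521, *GSTU22* -1.04, adjusted p = 0.00081), and so were *GSTU9* (-0.91, adjusted p = 0.000428) and *GSTU1* (-0.65, adjusted p = 0.00291). Each group then held 2 libraries. With iron the same 3 genes differed by at most 0.19 between the genotypes on the log2 scale, by 0.00 for *GSTU22*, -0.19 for *GSTU24* and -0.17 for *GSTU25*.

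*GSTU1* had the smallest p without iron among the members. Its -Fe libraries ranged from 77.6 to 100.6 CPM in wild type and from 58.4 to 66.3 CPM in *clf* (-0.51, SE 0.13, adjusted p = 0.254), and DESeq2 called it lower (adjusted p = 0.0405). *GSTU11* was also lower in all -Fe *clf* libraries, at a low level (-1.83, SE 0.64, adjusted p = 0.499), and its estimate was -2.89 without replicate 2 and -1.35 without replicate 3 of -Fe *clf*.

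*GSTU15* and *GSTU16* differed in the other direction. *GSTU16* had 4.47, 4.22 and 4.17 CPM in +Fe and 2.23, 2.62 and 2.07 CPM in -Fe wild type, against 7.93, 5.52 and 8.04 CPM in +Fe and 2.82, 6.22 and 5.35 CPM in -Fe *clf*. With and without iron, each *clf* library was above each wild type one (0.74, SE 0.28 with iron, and 1.05, SE 0.29 without it, adjusted p = 1 and 0.303). Once the 4 libraries that stand apart were left out, *GSTU16* was called higher in *clf*, by 0.93 with iron (adjusted p = 0.0304) and 1.3 without it (adjusted p = 0.00203). All 32 reads of *GSTU15*, a gene too low to test, were in *clf*. The wild type libraries had 0 reads, and the *clf* libraries had 3, 7 and 4 reads with iron and 2, 11 and 5 reads without it.

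*GSTU17*, induced by dehydration in earlier work and also named ERD9, had 4.47, 5.84 and 4.84 CPM in +Fe and 4.53, 11.1 and 6.08 CPM in -Fe wild type. In *clf* it had 14.8, 7.62 and 12.2 CPM with iron and 4.63, 13.1 and 11.8 CPM without it. The +Fe libraries of the genotypes did not overlap (1.20, SE 0.42, adjusted p = 1), and the -Fe libraries did. Without the 4 libraries that stand apart *GSTU17* was called higher with iron (1.35, adjusted p = 0.0103) and *GSTU26* in both conditions (0.63, adjusted p = 0.00635, and 0.73, adjusted p = 0.000953). *GSTU18*, which overlaps *GSTU17* by 71 bases on the same strand, averaged 4.63 and 2.55 CPM in +Fe and -Fe wild type and 4.39 and 4.23 CPM in *clf*, and was then called higher without iron (0.94, adjusted p = 0.0316). In the same fit *GSTU18* and *GSTU16* were called lower under iron deficiency in wild type (-0.87, adjusted p = 0.0189, and -0.84, adjusted p = 0.0146), which neither was with all libraries (adjusted p = 0.291 and 0.113). For both genes every -Fe wild type library was below every +Fe one, and in *clf* the groups overlapped. *GSTU4*, after *GSTU17* and *GSTU16* the member with the smallest p with iron, was lower in each +Fe *clf* library (-1.11, SE 0.51, adjusted p = 1). Its estimate fell to -0.51 without replicate 1 of +Fe wild type, which stands apart and held the 7.34 CPM.

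**Figure D4:**
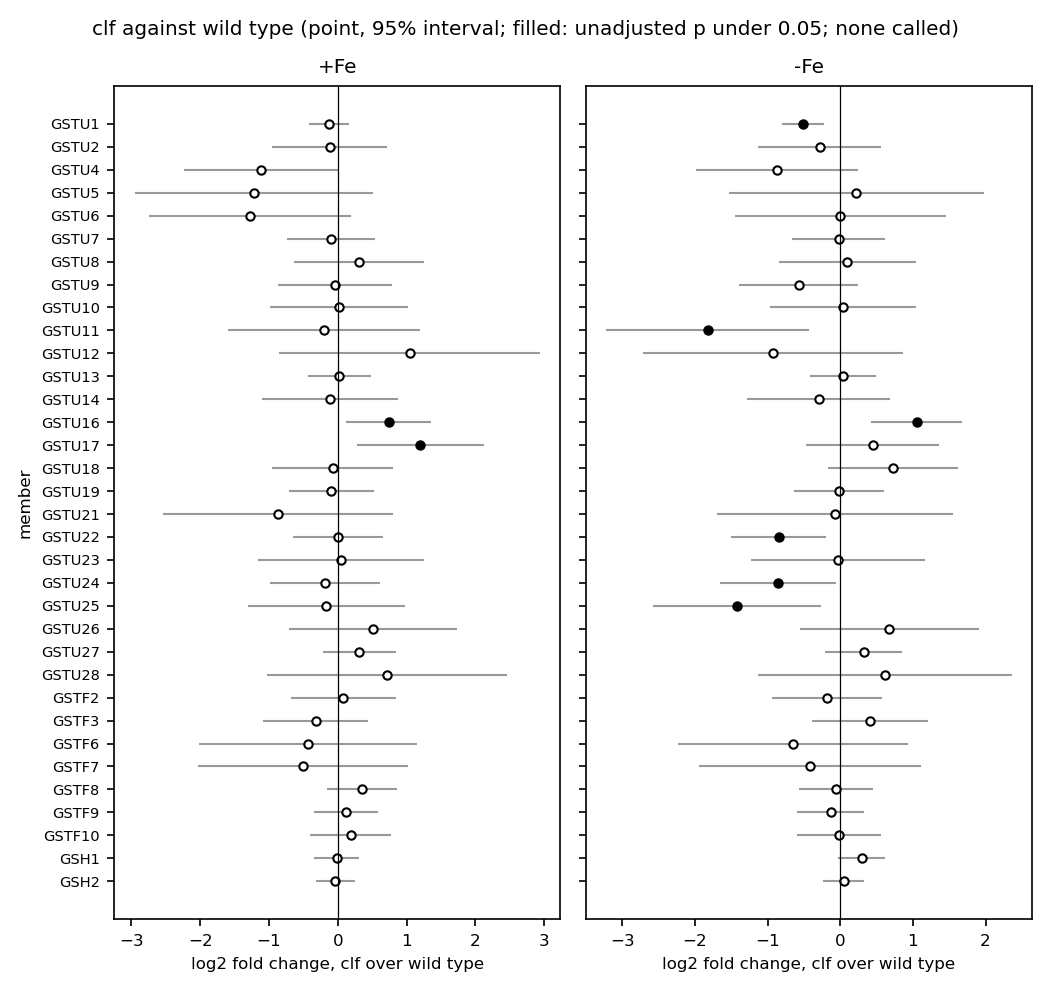
The log2 ratio of *clf* to wild type for the 34 tested members with iron (left) and without it (right), with 95% intervals (lines). Filled points have an unadjusted p under 0.05, 2 with iron and 6 without it, and none was called.

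The difference between the iron responses, *clf* minus wild type on the log2 scale, was called for 0 members in either direction, as for all genes tested (0% higher and 0% lower). The unadjusted edgeR p was under 0.05 for 0 members (1.59% of all genes), and none was called by DESeq2 (0.0149% of all). The estimates were -1.25 for *GSTU25* (95% interval -2.87 to 0.36), -0.85 for *GSTU22* (-1.77 to 0.07) and -0.68 for *GSTU24* (-1.80 to 0.45). Those of the genes with lower transcripts were 0.31 for *GSH1* (-0.15 to 0.77) and 0.73 for *GSTF3* (-0.38 to 1.84). The smallest p values belonged to *GSTU1* (-0.38, SE 0.19, unadjusted p = 0.0625), *GSTU22* (0.0679) and *GSTU11* (-1.63, SE 0.90, 0.0969), all with an adjusted p of 1. The intervals include 0 and also responses in *clf* that are far smaller than in wild type, so neither equal nor different responses were shown. Leaving out 1 library moved the *GSTU22* estimate to -0.55 (without replicate 1 of +Fe wild type) and that of *GSTU11* to -2.70 (without replicate 2 of -Fe *clf*). Without the 4 libraries that stand apart 1 member was called, *GSTU22* (-0.92, SE 0.21, adjusted p = 0.0401), where 2.25% of all genes were. *GSTU25* then had -2.04 (SE 0.44, adjusted p = 0.102), *GSTU24* -0.82 (adjusted p = 0.182), *GSH1* 0.47 (adjusted p = 0.114) and *GSTF3* 1.17 (adjusted p = 0.177).

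The 4 libraries that stand apart held less of several members whatever the group. *GSTU7*, *GSTU8*, *GSTU14* and *GSTU28* were lower in all 4 than in all other 8, as were 4.15% of all tested genes, and no member was higher in all 4, as were 3.63% of all. *GSTU28* had 1.90 to 10.7 CPM in these libraries and 13.4 to 31.9 CPM in the others, and *GSTU8* had 82.1 to 157 CPM against 199 to 251 CPM. *GSTU7* was at 60.1 to 101 CPM against 103 to 139.9 CPM, and *GSTU14* at 5.16 to 17.0 CPM against 18.0 to 25.0 CPM. These libraries were chosen by their correlation over all genes, so the values are a description.

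**Figure D5:**
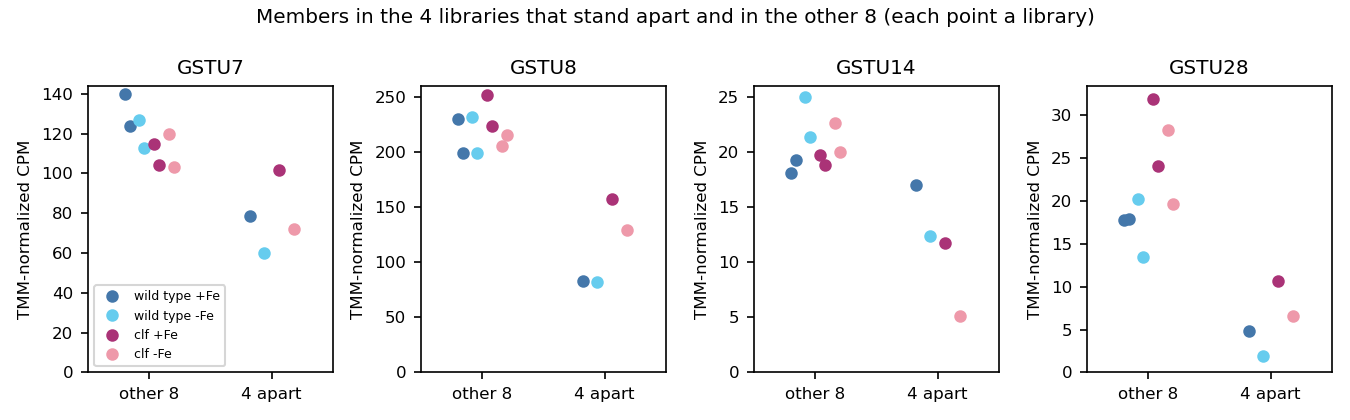
CPM of the 4 members that were lower in every library that stands apart, each point a library coloured by group. *GSTU28* lay at 1.90 to 10.7 CPM in the 4 libraries against 13.4 to 31.9 CPM in the other 8, and *GSTU8* at 82.1 to 157 CPM against 199 to 251 CPM.

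Genes around the glutathione pathway were listed with earlier results known. Of 25 tested genes for glutathione redox, turnover and transport, 1 was called higher and 1 lower in wild type, where 2.28% and 2.14% of all tested genes were. *PCS2*, a phytochelatin synthase that uses glutathione, rose from 1.39 to 6.07 CPM (2.11, SE 0.43, adjusted p = 0.0199) and *CLT3*, a plastid transporter of glutathione and its precursor, fell from 13.5 to 5.85 CPM (-1.21, SE 0.26, adjusted p = 0.0275). *PCS2* was the 1 called in *clf*, from 1.48 to 6.54 CPM (2.13, SE 0.43, adjusted p = 0.0311). Among 16 tested transferases outside the 36, *GSTL1*, of the lambda class, was the 1 called in both genotypes, from 13.1 to 355 CPM in wild type (4.76, SE 0.86, adjusted p = 0.0121) and from 9.54 to 413 CPM in *clf* (5.44, SE 0.89, adjusted p = 0.012). None of the 7 TGA factors was called in any comparison.

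Of 14 genes for other steps of detoxification and for stress signalling, 5 were called higher and 1 lower in wild type, and 2 higher and 1 lower in *clf*. Over all tested genes the shares were 2.28% higher and 2.14% lower in wild type, and 1.27% and 0.491% in *clf*. In wild type those higher were the glucosyltransferases *UGT73B4* and *UGT74E2* (60.0 to 136 and 24.0 to 213 CPM), the alternative oxidase *AOX1A* (53.3 to 145 CPM), the stress factor *ANAC013* (7.95 to 62.1 CPM) and the efflux carrier *DTX3* (0.245 to 60.9 CPM). In *clf* they were *ANAC013* (6.57 to 35.3 CPM) and *DTX3* (0.0544 to 24.0 CPM). *CYP81D11*, a cytochrome P450, fell in both, from 171 to 71.5 CPM and from 179.6 to 55.2 CPM. The median log2 fold change of this list was 1.28 in wild type and 0.80 in *clf*, against -0.003 and -0.011 over all genes. This list too was written with earlier results of these data known. Such a choice can favour high counts and medians, so the comparison with all genes is a description.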

How the data were processed

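RNA-seq of roots (TruSeq Stranded mRNA libraries) gave 12 libraries, 3 in each of 4 groups set by genotype and iron. Reads were aligned to TAIR10. The submitters' processing notes list TopHat2, and its version and the strand setting of the counting are not given in the sources used here. The authors deposited raw counts for each gene, obtained by the union mode of HTSeq, and a second table of FPKM values, in which the authors scaled by gene length and library size. A column without a name in the first table has a single word in it and was left out.

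Counts were fitted in edgeR 4.0.16 (R 4.3.3) in one model of the 4 groups, after TMM normalization and edgeR's default low-count filter, by the robust quasi-likelihood test and 8 residual degrees of freedom. Benjamini-Hochberg adjustment ran over 20168 genes, with a threshold of 0.05. The SE was worked back from the test, as the size of the log2 fold change over the square root of its F statistic. The 95% intervals rest on this SE. The test was run on simulated counts first. Precision is set by library totals of 18658428 to 28281420 counts and by a common dispersion whose square root was 0.302. Named genes are all 36 members, with values per library for those called, the member with the highest mean FPKM of each tandem cluster, GSH1, GSH2 and the 3 with the smallest p in each comparison. Genes outside the 36 are named where called or as a check. The members and lists were chosen with earlier results of these data known.

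Whether replicate numbers pair libraries was checked by correlating deviations from group means. Same-numbered libraries correlated at 0.616, 0.44 and 0.463 for iron in wild type and at 0.448, 0.541 and 0.165 for genotype in -Fe. Wild type replicates 2 and 3 also correlated across numbers (0.412 and 0.429), which is not independent of the former, since deviations cancel out within a group. For iron in *clf* (-0.394, -0.345 and 0.432) and for genotype in +Fe (-0.386, -0.398 and 0.344) they did not all do so. Alternatives were DESeq2 1.42.0, RLE factors, no filter, a minimum of 10 reads in each library, the replicate block, only the 6 libraries compared with and without it, limma 3.58.1 on log2(FPKM + 1) and log2(FPKM + 0.1) (genes reaching an FPKM of 1 in 3 libraries), each library left out, and the 4 libraries that stand apart left out or as a term. Positions, promoters and coding sequences are from RefSeq TAIR10.1, and coding identity is from a global alignment with Biopython 1.88.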

Additional observations from a re-analysis of the deposited data

How the results depend on the processing

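The counts of members called for iron in wild type changed with the libraries kept and with the fit. Against 3 called higher (2.28% of all tested genes), the replicate block in the 4-group model gave 1 (2.41% of all). The 6 libraries compared gave 1, and the same 6 with the replicate block 6 (6.45% of all). DESeq2 gave 6, the 8 libraries without the 4 that stand apart 9, and these 4 as a term 5. In either direction DESeq2 called 8.8% of all genes in wild type and the 8 libraries 27.3%. For the term, the 6 libraries without the block, the 6 *clf* libraries and each library left out, the share over all genes is not given. Those counts describe the members alone. Leaving out each library in turn gave 0 to 4, with 0 without replicate 3 of +Fe or replicates 2 or 3 of -Fe wild type, and 1 without replicate 2 of +Fe wild type. Against 2 called lower, the 8 libraries gave 8, the term 4 and the libraries left out in turn 1 to 3. In *clf*, against 0 higher, the 8 libraries gave 5 (14.6% of all genes in either direction). Against 1 lower, the 6 libraries with the replicate block gave 0, the 8 libraries 2 and the term 2, and leaving out each library gave 0 to 1. Between genotypes, against 0 in each, the 8 libraries gave 3 higher with iron (2.59% of all genes in either direction). Without iron they gave 3 higher and 5 lower (7.98% of all), where DESeq2 gave 1 lower (1.12% of all in either direction). For the difference between the iron responses the 8 libraries gave 1 lower against 0 (2.25% of all genes in either direction). The replicate block changed no genotype count, with 0 calls. The estimate for GSH2 in *clf*, 0.0048, turned negative with no filter (-0.0073), 10 reads (-0.0137), the 6 libraries without and with the block (-0.0003 and -0.0074), limma (-0.1169 and -0.1193 with pseudocounts of 1 and 0.1) and the 8 libraries (-0.0212), and ran from -0.0712 to 0.0922 with each library left out. For the members called in each comparison, those with the smallest p and GSH2, 429 values were recomputed under the alternatives. Of these, 384 kept direction and side of the threshold, 29 lost the call, 6 gained one and 10 turned direction. Values of members not called in the main fit could not lose a call, and all 29 losses were among those called there. The 384 is therefore no measure of how stable the calls were. The cause of these changes was not tested. The smallest totals, 53 and 32 reads, left GSTU3 and GSTU15 untested.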
